A study of Bruguiera gymnorhiza with 19 samples.

Results

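Leaves of *Bruguiera gymnorhiza* (Burma mangrove), a tree of tropical tidal shores that tolerates salt, were compared after 24 h in sorbitol and at 0 h of the same series. The comparison rests on 6 of the 18 samples of the study, 3 taken after 24 h in 1 M sorbitol (A, B and C) and 3 untreated samples taken at 0 h (A, B and C), chosen by the treatment and time in the labels. All plants were 3 years and 7 months old, and sorbitol was given by exchanging the culture water. The other samples used beside them are 3 leaves after 6 h in sorbitol and, from plants given 500 mM NaCl, 3 leaves after 24 h and 3 untreated leaves from 0 h. The labels call A, B and C biological replicates but do not say whether each is a separate plant or a pool. A p-value therefore measures only the spread among samples. The fit estimates that spread over all 18 samples of the study, including leaves after 6 h in NaCl. No untreated leaves from 24 h were among the samples, so time of sampling and sorbitol cannot be told apart.

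Sorbitol is an uncharged sugar alcohol that lowers the water potential of the medium, so that roots take up water less readily, without adding sodium or chloride ions. Plant cells under such osmotic stress commonly accumulate compatible solutes, close stomata through abscisic acid and change the transcript levels of many genes, with stress-protective proteins often raised and growth-related ones lowered. The files give a clone or contig identifier and a sequence for each probe, with no gene names, so no probe is assigned a function here, and the labelled tissue could not be set against leaf marker genes. A name that starts with Bg belongs to a single sequenced clone, and one that starts with CL to a contig, a sequence assembled from several clones. The last 2 numbers of a name are read here only as part of the identifier.

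The leaf transcripts were measured as the foreground intensity of each spot on 1-colour arrays, and levels are given as normalized log2 intensity, on which 1 unit is a 2-fold difference. On the 6 arrays the median intensity of the mangrove probes before normalization ran from 75.25 to 780.2, 6559 to 7408 probes lay above the negative control spots, and 1 to 16 were at the scanner ceiling. The arrays of sorbitol 24 h C and sorbitol 0 h C had the lowest signal of these 6, with 2433 probes at intensity 0 on the first and 2126 on the second, against 0 or 1 on the others. Of 8655 probes tested, 822 differed between the groups at a limma adjusted p under 0.05 and are called changed here (9.5%). Of these, 425 rose (4.91%) and 397 fell (4.59%). Without any of the 4 arrays of lowest signal in the study the count was 339 (216 rose and 123 fell). Without a single 24 h sample it was 856 (A), 499 (B) or 457 (C), and without a single 0 h sample 479 (A), 548 (B) or 627 (C).

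The sequences printed here are those that the results turn on. The first 5 belong to probes that stood among the 12 with the highest rise and overlap each other, and capitals mark runs of at least 10 bases that occur in another of the 5. All are written as in the files, which is taken as 5′ to 3′, and the genome position of each is not given there.
Bg04-30_K13_568_603: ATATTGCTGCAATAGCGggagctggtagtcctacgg
Bg04-03_O04_548_586: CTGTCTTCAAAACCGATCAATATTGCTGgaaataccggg
Bg04-25_N23_538_576: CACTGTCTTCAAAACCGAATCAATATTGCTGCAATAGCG
Bg03-05_F14_546_580: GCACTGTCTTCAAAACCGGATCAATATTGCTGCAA
Bg03-08_B06_540_576: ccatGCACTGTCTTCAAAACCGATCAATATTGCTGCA
The next 3 share no run of at least 15 bases with another probe on the array: the probes with the highest and the lowest log2 fold change, and one that stood far higher at 6 h than at either 0 h or 24 h.
Bg04-21_I17_25_59: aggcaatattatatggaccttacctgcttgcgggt
CL192Contig1_771_805: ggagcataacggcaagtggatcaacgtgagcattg
CL177Contig1_346_381: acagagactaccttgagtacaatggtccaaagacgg

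Rises reached further from 0 than falls did. Among the risen probes, 114 changed 4-fold or more, 222 between 2-fold and 4-fold, and 89 less than 2-fold. Among the fallen probes, 38 changed 4-fold or more, 298 between 2-fold and 4-fold, and 61 less than 2-fold. The median change was 1.34 on the log2 scale for risen probes and -1.21 for fallen ones, against 0.0208 over all probes tested. In 419 of the 425 risen and 393 of the 397 fallen probes the 3 samples of each group did not overlap, while over all 8655 probes 2702 (31.2%) had groups that did not overlap.

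**Figure D1:**
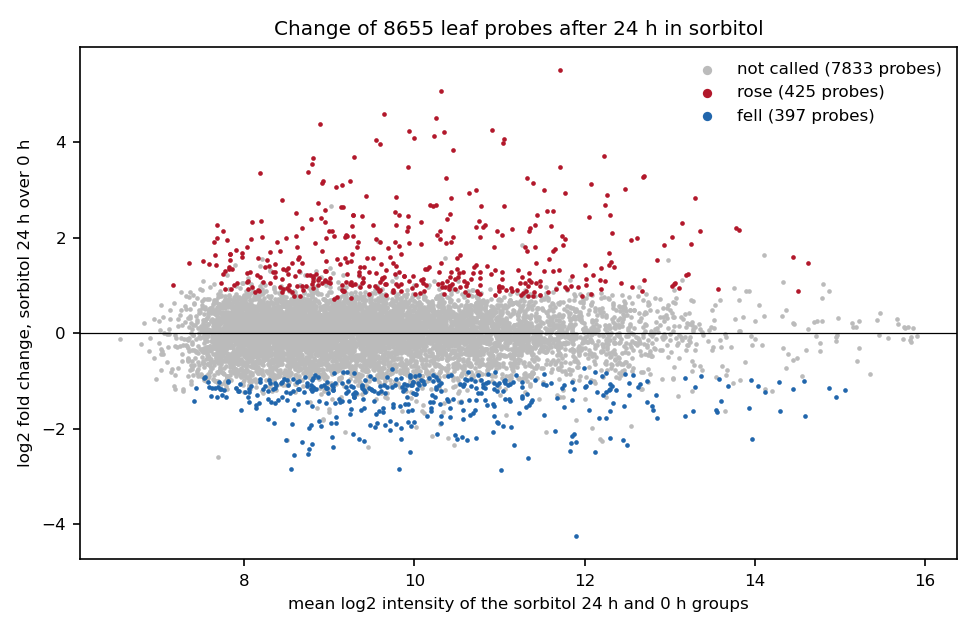
Log2 fold change of sorbitol 24 h over 0 h (vertical) against the mean normalized log2 intensity of both groups (horizontal), 1 point for each of the 8655 probes tested, coloured by the limma call. The 425 risen probes reach 5.51 and the 397 fallen ones -4.24, and called probes occur at all levels.

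The 24 h samples did not depart from the 0 h mean by equal amounts. Over the 425 risen probes the median difference from the 0 h mean was 1.28 in 24 h A, 1.24 in 24 h B and 1.56 in 24 h C, against -0.119 to 0.113 in the 0 h samples. Over the 397 fallen probes it was -0.994 in 24 h A, -1.38 in 24 h B and -1.34 in 24 h C, against -0.045 to 0.0579 in the 0 h samples. Sample A thus stood nearest to the 0 h level among the fallen probes: it was the nearest of the 3 for 271 of 397, against 27 for B and 99 for C. Over all probes tested A was the nearest for 3446 of 8655. The median SD of the fallen probes was 0.382 at 24 h and 0.261 at 0 h, whereas for the risen probes it was 0.293 at 24 h and 0.298 at 0 h.

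Bg04-21_I17_25_59 had the highest log2 fold change of the called probes. Its normalized log2 intensity was 14.93, 13.86 and 14.61 in 24 h A, B and C, against 9.06, 8.72 and 9.10 in 0 h A, B and C. All 6 samples were above the negative controls, the 24 h samples lay at least 4 log2 units above every 0 h sample, and none was at the scanner ceiling. Before normalization the same spots read 35829, 26531 and 14532 at 24 h, against 841, 771 and 141 at 0 h. The log2 fold change was 5.51 (SE 0.29, 95% interval 4.89 to 6.12, limma adjusted p = 1.99e-10), or 45.5-fold. With the foreground median in place of the mean it was 3.81, outside that interval, and 10 other named probes had higher values. Without 24 h A it was 5.28, below the fitted 5.64 of Bg04-30_K13_568_603, so its rank by fitted value depends on both choices. The 5.64 is not a measured size, since Bg04-30_K13_568_603 was above the negative controls in no untreated sample. At 6 h the level of Bg04-21_I17_25_59 was 9.21, 8.88 and 9.12 in A, B and C, so the 6 h samples overlapped the untreated ones.

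Bg04-22_L19_257_291 measured 12.39, 11.74 and 11.99 at 24 h in A, B and C, against 7.58, 8.22 and 8.08 at 0 h. The groups lay far apart, although only 1 of the 3 untreated samples was above the negative controls. The log2 fold change was 4.08 (SE 0.28, limma adjusted p = 1.24e-08). Its size is not exact, since it rests partly on untreated levels near background. The 6 h samples lay between both groups, at 10.28, 9.93 and 9.77.

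The 5 overlapping probes were Bg04-30_K13_568_603, Bg04-03_O04_548_586, Bg04-25_N23_538_576, Bg03-05_F14_546_580 and Bg03-08_B06_540_576. Each shares an unbroken run of 15 to 28 bases with at least 1 other of them: the longest run, 28 bases, joins Bg04-03_O04_548_586 and Bg03-08_B06_540_576, and Bg04-30_K13_568_603 is joined by 17 bases to Bg04-25_N23_538_576. The files do not say whether they report 1 transcript or several, so they are not 5 independent findings. All were called as risen (limma adjusted p at most 2.71e-06), the first with only a bound on its size and the others with log2 fold changes of 4.50, 4.21, 4.12 and 4.07 in the order named.

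Bg04-30_K13_568_603 measured 11.74, 13.22 and 13.62 at 24 h in A, B and C, against 7.01, 7.98 and 8.34 at 0 h. It was above the negative controls in no untreated sample and was at least 23.0-fold higher at 24 h, a bound set by the lowest level that counted as detected. Bg03-08_B06_540_576 was above the negative controls in all 6 samples and measured 12.29, 13.69 and 13.27 at 24 h, against 8.43, 9.28 and 9.33 at 0 h. Sample A was the lowest of the 24 h samples for 5 of the 5 probes. That every 24 h sample lay above every 0 h sample was a condition for naming a probe.
The other 3 had 24 h samples from 11.60 to 13.00 and untreated samples from 7.44 to 8.74, with 1 of 3 untreated samples above the negative controls for each. The log2 fold changes of these 3 are therefore not exact sizes. At 6 h the 5 probes ranged from 7.75 to 11.06. Sample C, an array of lowest signal, was the lowest at 6 h for 5 of the 5, and the 6 h samples lay below all 24 h samples for 5 of the 5.

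**Figure D2:**
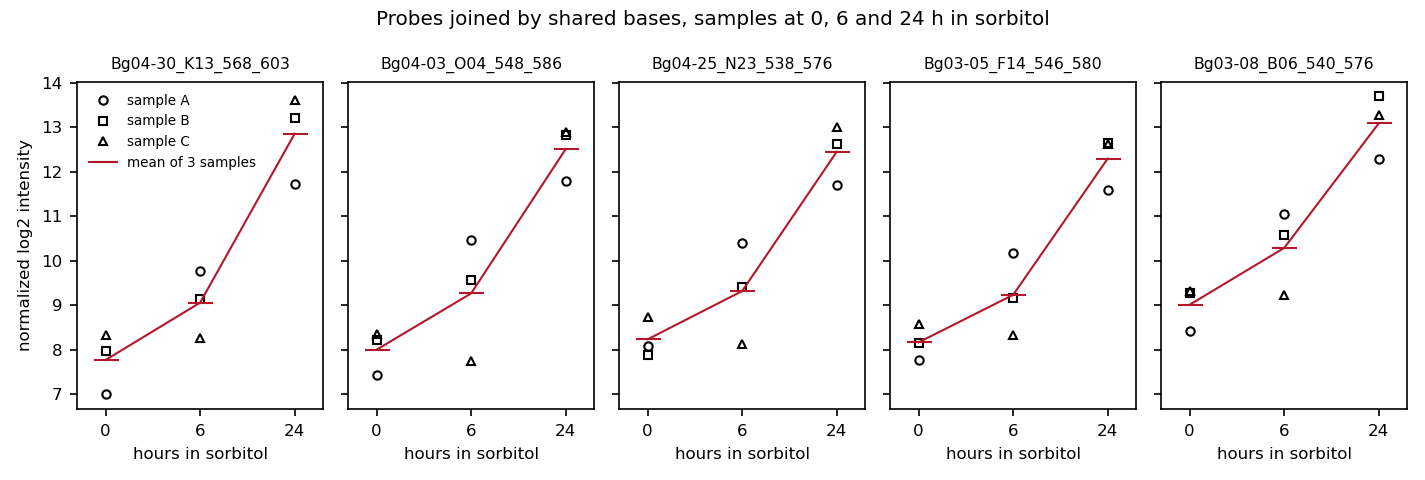
Normalized log2 intensity (vertical) of the 5 overlapping probes after 0, 6 and 24 h in sorbitol (horizontal), with 1 symbol for each sample and a red line through the mean of 3. At 24 h sample A is the lowest in every panel, and at 6 h sample C is the lowest.

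Of the 12 probes that rose most, 4 were contigs. CL943Contig1_42_76 measured 12.28, 11.65 and 11.89 at 24 h in A, B and C, against 7.21, 8.01 and 6.80 at 0 h, and was at least 12.2-fold higher at 24 h (limma adjusted p = 1.78e-07). CL1389Contig1_154_193 measured 11.01, 11.08 and 11.15 at 24 h, the tightest 24 h group of all named probes (SD 0.07), against 6.10, 7.20 and 6.80 at 0 h, and was at least 6.70-fold higher at 24 h (limma adjusted p = 7.26e-08). All 3 treated samples and none of the 3 untreated ones exceeded the negative controls for both probes.

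CL1467Contig1_585_619 measured 13.47, 12.98 and 12.66 at 24 h, against 8.85, 9.10 and 8.39 at 0 h, where 2 of 3 samples were above the negative controls. The log2 fold change was 4.26 (SE 0.38, limma adjusted p = 2.76e-07). CL38Contig1_682_716 measured 11.09, 12.22 and 12.86 at 24 h, against 7.22, 7.83 and 8.40 at 0 h, and was at least 13.2-fold higher at 24 h (limma adjusted p = 2.21e-06). Sample A was its lowest at 24 h, as in the 5 overlapping probes, with which it shares no run of 15 bases. The last of the 12, Bg04-09_H20_258_292, measured 11.67, 11.27 and 11.77 at 24 h, against 7.26, 8.51 and 6.80 at 0 h (log2 fold change 4.05, SE 0.43, limma adjusted p = 2.07e-06). Only 0 h B of its untreated samples was above the negative controls, so the size is not exact. Without the arrays of lowest signal its log2 fold change was 3.59. In 3 of the 12 risen probes (CL943Contig1_42_76, CL1389Contig1_154_193 and Bg04-09_H20_258_292) the spot on 0 h C read 0 before normalization, so the printed level of 6.80 is the floor of that array.

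**Figure D3:**
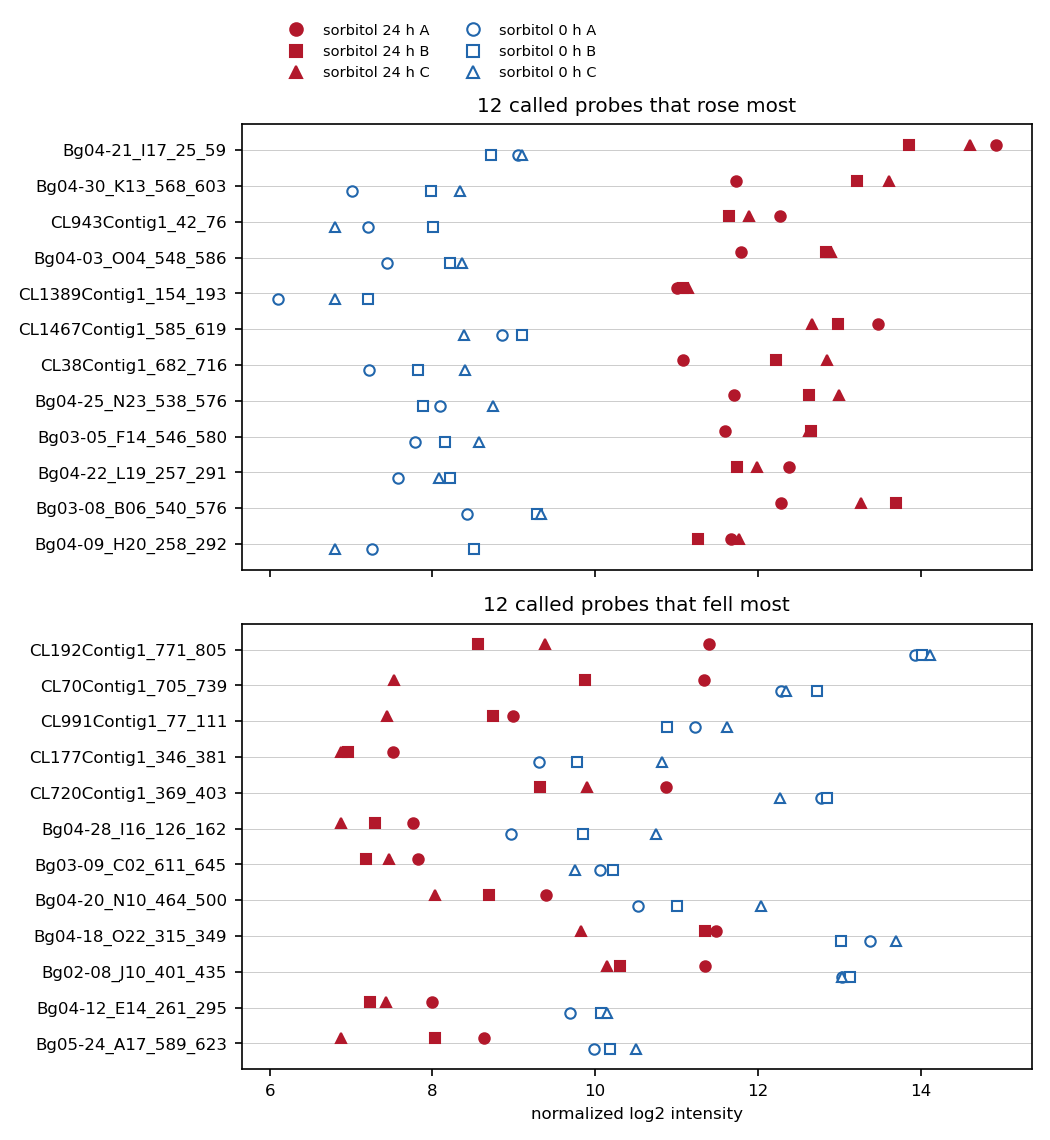
Normalized log2 intensity (horizontal) of the 12 called probes that rose most (upper panel) and the 12 that fell most (lower panel), with filled red symbols for sorbitol 24 h and open blue symbols for sorbitol 0 h, 1 symbol for each sample. Only probes whose groups do not overlap were named, so the gap in each of the 24 was a condition and not a result. Among the fallen ones 24 h A is the highest of the 24 h samples in 12 of 12.

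CL192Contig1_771_805 fell most. Its level was 11.40, 8.56 and 9.39 in 24 h A, B and C, against 13.94, 14.02 and 14.11 in 0 h A, B and C. The untreated samples agreed within 0.09 (SD), while the treated ones spread widely (SD 1.46) with A nearest to the untreated level. The log2 fold change was -4.24 (SE 0.48, 95% interval -5.23 to -3.25, limma adjusted p = 3.73e-06), or 18.9-fold lower at 24 h, from spots above the negative controls in all 6 samples. It was -5.05 without 24 h A and -3.63 without 24 h B, so single samples move the fold by over 1.5 times in both directions. The SE and interval use the spread within all groups of the fit. When only the compared groups were fitted, the limma adjusted p was 0.0014.

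CL70Contig1_705_739 had the widest 24 h spread of the named probes: 11.34, 9.88 and 7.52 in A, B and C (SD 1.93), against 12.28, 12.72 and 12.34 at 0 h. Of the treated samples, 2 of 3 were above the negative controls, and on 24 h C the spot read 2.18 before normalization. The log2 fold change was -2.87 (SE 0.57, limma adjusted p = 0.0022). It was -3.75 without 24 h A, -1.84 without 24 h C and -1.89 without the arrays of lowest signal, and was called in each. The SE uses the spread within all groups of the fit. With only the compared groups in the fit, the limma adjusted p was 0.037.

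CL991Contig1_77_111 measured 8.99, 8.75 and 7.45 at 24 h, against 11.22, 10.89 and 11.62 at 0 h (log2 fold change -2.85, SE 0.53, limma adjusted p = 0.00125). CL720Contig1_369_403 measured 10.87, 9.32 and 9.89 at 24 h, against 12.78, 12.85 and 12.27 at 0 h (log2 fold change -2.61, SE 0.54, limma adjusted p = 0.00359). Bg02-08_J10_401_435 measured 11.36, 10.30 and 10.15 at 24 h, against 13.03, 13.13 and 13.04 at 0 h (log2 fold change -2.46, SE 0.47, limma adjusted p = 0.00143). CL991Contig1_77_111 was above the negative controls in 2 of 3 treated samples, its spot on 24 h C read 1.13 before normalization, and without the arrays of lowest signal its change was -2.19. For all 3 the untreated samples were closer together than the treated ones.

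Another 4 fallen probes were above the negative controls in 0 of 3 treated and 3 of 3 untreated samples, so only a bound can be given. CL177Contig1_346_381 measured 7.52, 6.97 and 6.88 at 24 h, against 9.31, 9.77 and 10.82 at 0 h, at least 3.42-fold lower at 24 h (limma adjusted p = 9.53e-06). Bg03-09_C02_611_645 measured 7.82, 7.19 and 7.47 at 24 h, against 10.06, 10.22 and 9.75 at 0 h, at least 3.53-fold lower at 24 h (limma adjusted p = 4.34e-06). The remaining 2, Bg04-28_I16_126_162 and Bg04-12_E14_261_295, were at least 3.17-fold and at least 3.44-fold lower (limma adjusted p = 0.000432 and 1.63e-05). Bg03-09_C02_611_645 shares a run of 15 bases with Bg04-10_M22_529_563, which also fell (log2 fold change -1.95, SE 0.29, limma adjusted p = 0.00012).

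Bg04-20_N10_464_500, Bg04-18_O22_315_349 and Bg05-24_A17_589_623 complete the 12, with log2 fold changes of -2.49, -2.48 and -2.38 (SE 0.46, 0.54 and 0.41) and limma adjusted p of 0.00121, 0.00485 and 0.000633. Bg04-20_N10_464_500 was above the negative controls in 2 of 3 treated samples and Bg05-24_A17_589_623 in 1 of 3, so their folds rest partly on levels near background. Without the arrays of lowest signal the values were -1.73, -1.79 and -1.76, and Bg04-18_O22_315_349 was no longer called (limma adjusted p = 0.068). Against NaCl 0 h neither it (-1.33) nor CL720Contig1_369_403 (-1.35) was called. For the 3 probes the lowest treated sample was 24 h C, at 8.03, 9.82 and 6.88. In 3 of the 12 fallen probes (CL177Contig1_346_381, Bg04-28_I16_126_162 and Bg05-24_A17_589_623) the spot on 24 h C read 0 before normalization, and 6.88 is the floor of that array.

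Shared sequence also joined other called probes. Among all called probes, 58 belonged to 27 sets joined by runs of at least 15 shared bases, 20 sets that rose and 7 that fell. Of the 359 pairs that share such a run and were both tested, 35 had both probes called, and 35 of the 35 were called in the same direction. Pairs with only 1 probe called were not counted separately, and pairs that share a probe are not independent. Among all probes tested 9.5% were called, a share of probes and not of pairs. Linked probes may report the same transcript, so their agreement in direction is not separate evidence. The only set of 3 probes fell, by log2 fold changes of -2.27 to -1.02. Within the 25 sets of 2 probes, the log2 fold changes of the members lay 0.217 apart at the median and 1.23 at most. Counting each set once, 791 changes were called in place of 822. The run of 15 bases was chosen after these sequences had been seen. With 25 bases, 18 pairs were both called and 18 of 18 in the same direction.

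Of 1031 contig probes 181 were called (17.6%, 102 rose and 79 fell), against 641 of 7624 single-clone probes (8.41%, 323 rose and 318 fell). Contigs were also brighter, with a median level of 10.31, against 9.19 for single clones. Among the 2885 probes with the highest level, 125 of 597 contigs (20.9%) and 265 of 2288 single clones (11.6%) were called. The shares are descriptions, with no test of the difference. Split by level into 3 classes of 2885 probes, 13.5% of the highest class were called, against 8.39% of the middle and 6.59% of the lowest class. The highest class held 169 rises and 221 falls, and the lowest 129 rises and 61 falls.

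Some probes were above the negative controls in only 1 group. There were 186 probes detected in 3 of 3 treated and 0 of 3 untreated samples, of which 83 were called (44.6%, against 9.5% of all probes tested), all as risen. In the other direction 48 probes were detected in 0 of 3 treated and 3 of 3 untreated samples, of which 31 were called (64.6%), all as fallen. Since detection in 1 group chose these probes, neither their direction nor their share called is a finding. The counts are of probes, not transcripts, and the limit was set on each array by its own negative controls.

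Leaves after 6 h in the same solution, taken as separate samples, give the level at an intermediate time. There too, time of sampling and sorbitol cannot be told apart, for lack of untreated leaves from 6 h. Between 24 h and 6 h, 467 of 8655 probes differed (5.4%), 276 higher and 191 lower at 24 h, and between 6 h and 0 h 271 did (3.13%). Without a single 6 h sample the first count was 558 (A), 289 (B) or 343 (C), and without a single 24 h sample 469 (A), 314 (B) or 279 (C). The 6 h and 24 h comparisons share samples, so values are set side by side only. The named probes were picked by their change from 0 h to 24 h, and the same 24 h samples enter the comparison with 6 h. All 12 named risen probes were also higher at 24 h than at 6 h by the test, with log2 differences from 2.02 to 5.39. Among them Bg04-21_I17_25_59 changed by 0.11 between 6 h and 0 h (limma adjusted p = 0.969), while Bg04-22_L19_257_291 had risen by 2.04 at 6 h (limma adjusted p = 0.000135).

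The named fallen probes took different courses. CL177Contig1_346_381 was very high at 6 h, at 14.82, 14.73 and 15.04 in A, B and C, with no spot at the scanner ceiling, and it rose by 4.90 at 6 h (limma adjusted p = 1.06e-08). At 24 h it was at least 102-fold lower than at 6 h (limma adjusted p = 6.27e-12) and also below its untreated level. No other named probe lay on opposite sides of its untreated level at both times with both differences called. The level of CL177Contig1_346_381 after 6 h in NaCl was not compared, so its 6 h peak cannot be called particular to sorbitol. Its mean over all 18 samples, which include leaves after 6 h in NaCl, was 11.25.
CL192Contig1_771_805 was at 12.71, 11.66 and 12.14 at 6 h, between the 24 h and 0 h levels, and its level at 24 h differed from that at 6 h by -2.39 on the log2 scale (limma adjusted p = 0.00295). CL70Contig1_705_739 stood at 11.71, 12.28 and 12.36 at 6 h, a difference of -0.33 to its untreated mean (limma adjusted p = 0.941), and fell by 2.54 between 6 h and 24 h (limma adjusted p = 0.00822). CL991Contig1_77_111 fell by 3.47 at 6 h relative to 0 h (limma adjusted p = 0.000369), with 1 of 3 samples above the negative controls at 6 h, so the size is not exact, and its 24 h and 6 h levels were not called different (limma adjusted p = 0.623). Of the 12 fallen probes, 5 were lower at 24 h than at 6 h by the test, which uses the 24 h samples that they were picked by.

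**Figure D4:**
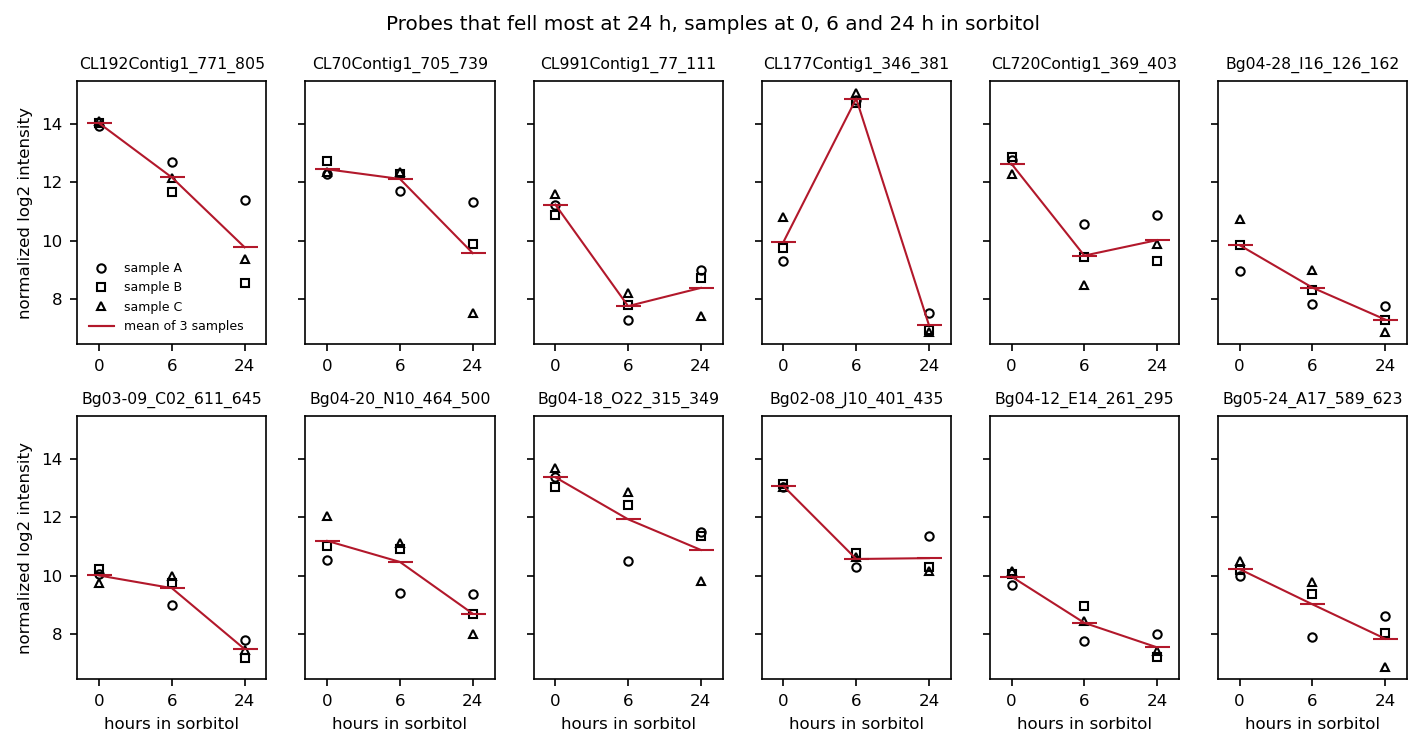
Normalized log2 intensity (vertical) of the 12 called probes that fell most, after 0, 6 and 24 h in sorbitol (horizontal), with 1 symbol for each sample and a red line through the mean of 3. CL177Contig1_346_381 has means of 9.97 at 0 h, 14.86 at 6 h and 7.12 at 24 h, while CL192Contig1_771_805 steps down at both times.

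NaCl lowers the water potential as sorbitol does and adds ions. In NaCl, 339 of 8655 probes were called between 24 h and 0 h (3.92%), 142 as risen (1.64%) and 197 as fallen (2.28%). The difference of both 24 h changes, sorbitol minus NaCl, was called for 176 probes (2.03%), 111 with the sorbitol change higher and 65 with it lower, while 1525 passed 0.05 before adjustment. Dropping 1 sample gave 268 (A), 86 (B) or 136 (C) calls for the treated sorbitol leaves and 98 (A), 108 (B) or 144 (C) for their untreated leaves. It gave 105 (A), 87 (B) or 194 (C) for the treated NaCl leaves and 208 (A), 72 (B) or 196 (C) for the untreated NaCl leaves. Of the 425 probes that rose in sorbitol, 362 had a NaCl change above 0 (85.2%, against 52.4% of all probes tested), at a median of 0.577, and 67 were called as risen in NaCl (15.8%) and 1 as fallen. Of the 397 that fell in sorbitol, 145 had a NaCl change above 0 (36.5%), at a median of -0.139, and 5 were called as fallen in NaCl (1.26%), a share under that of all probes.

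None of the 24 named probes was called in NaCl at 24 h, and the difference of the changes was called for all 12 risen and 5 of the 12 fallen probes. The named probes were picked by their change in sorbitol, which enters that difference. Bg04-21_I17_25_59 measured 8.93, 8.76 and 8.59 after 24 h in NaCl, against 8.99, 8.16 and 9.01 at 0 h of that series, and its sorbitol change exceeded the NaCl change by 5.47 (SE 0.42, limma adjusted p = 1.62e-07). Bg04-30_K13_568_603 measured 6.15, 5.94 and 6.64 after 24 h in NaCl, against 7.13, 7.26 and 6.95 at 0 h, not above the negative controls in any of the 6, and the difference was called (limma adjusted p = 1.55e-05) but has no exact size, since the sorbitol 0 h samples were not above them either. Both stayed low in NaCl while they rose in sorbitol.

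Of the 12 named risen probes, CL1467Contig1_585_619 and CL943Contig1_42_76 had the highest NaCl changes, 1.21 (SE 0.38, limma adjusted p = 0.0752) and 1.12 (SE 0.39, limma adjusted p = 0.107), neither of them called. At NaCl 0 h the first was above the negative controls in 1 of 3 samples and the second in 0 of 3. CL192Contig1_771_805 measured 13.42, 14.31 and 13.81 after 24 h in NaCl, against 13.42, 12.95 and 13.63 at 0 h, so these groups overlapped, and the sorbitol change was lower than the NaCl change by a log2 difference of -4.75 (SE 0.67, limma adjusted p = 0.00046). For CL991Contig1_77_111 the difference was -2.63 (limma adjusted p = 0.0671) and was not called.

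**Figure D5:**
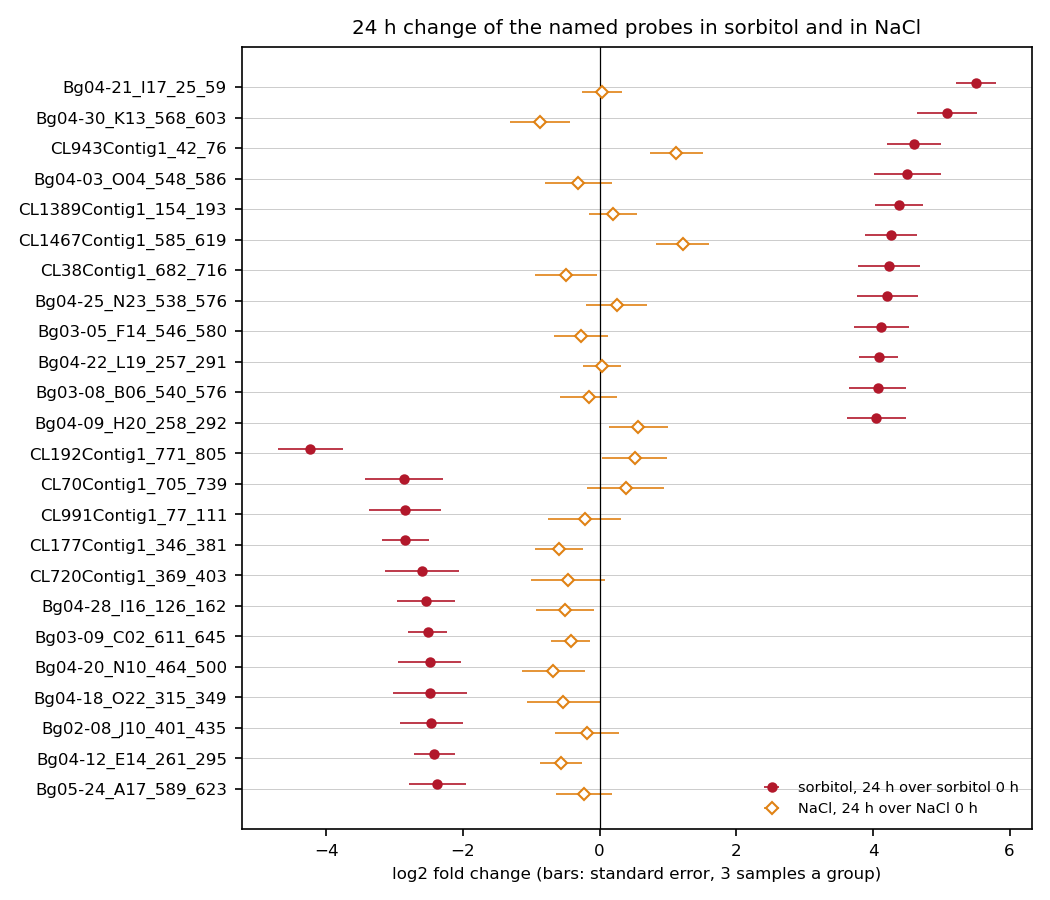
Log2 fold change at 24 h (horizontal) of the 24 named probes, with filled red circles for sorbitol 24 h over sorbitol 0 h and open orange diamonds for NaCl 24 h over NaCl 0 h, and bars for the standard error of the fit. For 6 of the risen probes no sample of either NaCl group was above the negative controls, so their NaCl values are differences of background. All NaCl values lie between -0.87 and 1.21, and the sorbitol values lie at or beyond 4.05 upwards and -2.38 downwards.

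The untreated leaves of both series were not alike in every probe. Between sorbitol 0 h and NaCl 0 h, 70 of 8655 probes were called (0.809%), 44 higher and 26 lower in sorbitol 0 h, and the count was 36, 24 or 40 without sorbitol 0 h A, B or C and 28, 20 or 290 without NaCl 0 h A, B or C. None of the 24 named probes was among the 70. With the NaCl 0 h leaves as the control in place of sorbitol 0 h, 2108 probes were called after 24 h in sorbitol, and with both untreated groups pooled 1682. The fold of 13 of the 24 named probes moved by over 1.5 times with NaCl 0 h as the control.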

How the data were processed

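The authors deposited 1 scanner file per array, 19 in all, with foreground intensity on a linear scale per the file headers. The scanner and its software are not named in those headers or labels. Cy5-labelled cRNA was hybridised, per the labels' protocols. Depth is not counted on arrays, and 3 samples a group limit precision.

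Foreground means of mangrove probes were corrected with normexp (offset 50). On the 4 arrays of lowest signal (NaCl 6 h C and sorbitol 0 h C, 6 h C and 24 h C) normexp failed, and the foreground plus 50 was used. Values were log2 transformed and quantile-normalized over all arrays. Both NaCl 0 h C arrays were averaged. Probes above the 95th percentile of the negative controls in at least 3 of 18 samples were kept. All 18 samples entered 1 model of 6 group means (limma 3.58.1, R 4.3.3, 12 residual degrees of freedom, checked on simulated data) with Benjamini-Hochberg adjustment over all probes. For a bound ("at least"), values of the dimmer group below the lowest detected level of their array were raised to it before the means were compared.

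Named were, among called probes whose groups do not overlap and whose brighter group is detected in 3 of 3 samples, the 12 highest and 12 lowest log2 fold changes, with the 3 highest and 3 lowest contigs, all among them. Members and lists were chosen with earlier results of these data known. Alternatives covered background, intensity measure, scaling, filter, eBayes settings, samples left out, a replicate block and other controls. Gene lists were not formed for lack of gene names. The series' value table was not used. Figures used matplotlib 3.10.9.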

Additional observations from a re-analysis of the deposited data

Results flagged for a closer look

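The 24 h change in sorbitol differed from the 24 h change in NaCl, by the interaction term of the fit, for 17 of the 24 named probes. In 11 of the 17 at least 1 of the 4 groups had no sample above the negative controls. For these 11 the values are fitted differences that include levels at background, not measured sizes. The other 6 were Bg04-21_I17_25_59, Bg04-22_L19_257_291, CL1467Contig1_585_619, Bg03-08_B06_540_576, CL192Contig1_771_805 and CL70Contig1_705_739. Of the 6, only CL192Contig1_771_805 was above the negative controls in 3 of 3 samples of all 4 groups. The rest include samples that were not, so their sizes are not exact. Bg04-22_L19_257_291 was above them in 1 of 3 samples at sorbitol 0 h, and CL1467Contig1_585_619 in 1 of 3 at NaCl 0 h. The fitted differences, sorbitol minus NaCl on the log2 scale, were 5.47 for Bg04-21_I17_25_59, 5.95 for Bg04-30_K13_568_603, 4.82 for Bg04-03_O04_548_586, 3.96 for Bg04-25_N23_538_576, 4.40 for Bg03-05_F14_546_580 and 4.23 for Bg03-08_B06_540_576. They were 3.47 for CL943Contig1_42_76, 4.18 for CL1389Contig1_154_193, 3.05 for CL1467Contig1_585_619, 4.73 for CL38Contig1_682_716, 4.05 for Bg04-22_L19_257_291 and 3.48 for Bg04-09_H20_258_292. For the fallen probes they were -4.75 for CL192Contig1_771_805, -3.25 for CL70Contig1_705_739, -2.25 for CL177Contig1_346_381, -2.09 for Bg03-09_C02_611_645 and -1.86 for Bg04-12_E14_261_295. The weakest of the 17 was CL70Contig1_705_739 (limma adjusted p = 0.0364). The 5 overlapping probes count once at most, and all 17 were picked for their change in sorbitol, which enters the difference.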

How the results depend on the processing

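Of 412 values of the 24 named probes under 18 other settings, 409 were called in the same direction, 3 were not called and none reversed. Those 3 were Bg04-18_O22_315_349 without the lowest-signal arrays and with NaCl 0 h as the control, and CL720Contig1_369_403 with NaCl 0 h as the control.
For sorbitol 24 h against 0 h, the 822 calls became 470 with median scaling, 339 without the lowest-signal arrays (63.7% of them higher, against 51.7%), 2108 with NaCl 0 h as the control and 1682 with both untreated groups pooled. Leaving out single samples gave 457 (without 24 h C) to 856 (without 24 h A), with 479 without 0 h A and 499 without 24 h B. For the difference from NaCl, the 176 calls became 72 with median scaling, 105 with detection in all 18 samples and 93 without the lowest-signal arrays, and 72 to 268 with single samples left out. Between 24 h and 6 h in sorbitol, the 467 calls became 283 with median scaling, 255 without the lowest-signal arrays, 250 with only the compared groups in the fit, and 279 to 558 with single samples left out. Between the untreated groups, the 70 calls became 43 with median scaling and 118 with detection in all 18 samples, and 20 to 290 with single samples left out. The cause of these shifts was not tested.
The letters were not taken as pairs: same-letter samples of sorbitol 24 h and 0 h deviated with correlations of -0.0672, -0.106 and 0.112 (A, B and C). In the other 4 pairs of groups checked at least 1 letter was also not over 0.1, although some letters were. The values were -0.0249, 0.239 and 0.331 for sorbitol 0 h with NaCl 0 h, and -0.0564, 0.221 and 0.119 for NaCl 24 h with 0 h. They were -0.14, 0.111 and -0.153 for sorbitol 24 h with 6 h, and 0.0177, -0.0296 and 0.108 for sorbitol 24 h with NaCl 24 h. Letter C is an array of lowest signal at all 3 sorbitol times. With the replicate block the counts were 1085 for 24 h against 0 h, 319 for the difference from NaCl and 116 for the untreated groups. Without it they were 822, 176 and 70, so the counts depend on that choice.
Signal near the negative controls leaves only a bound for 4 of the 12 risen and 4 of the 12 fallen named probes. Bg04-03_O04_548_586, Bg04-25_N23_538_576, Bg03-05_F14_546_580, Bg04-22_L19_257_291 and Bg04-09_H20_258_292 were above them in 1 of 3 untreated samples. Bg05-24_A17_589_623 was above them in 1 of 3 treated samples. The fold changes of these probes rest largely on levels near background and are not exact sizes.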
